A study of Oryza sativa with 8 samples.

Results

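The response of shoot transcripts to nitrogen withdrawal was compared between the rice varieties Prasanna and Varadan, as a difference of differences. For each probe set the response in Prasanna (no nitrogen minus supplemented nitrogen) was subtracted from the same response in Varadan, on the log2 scale. A difference above 0 therefore means a response that is more positive, or less negative, in Varadan. The comparison used 8 of 8 arrays of the study, 2 in each of 4 groups, and covered 34333 of 57381 probe sets, those bright enough to be tested. The groups were Prasanna without nitrogen, Prasanna with supplemented nitrogen, Varadan without nitrogen and Varadan with supplemented nitrogen. All seedlings were germinated for 7 days and then kept for 10 days in Yoshida nutrient solution that held nitrogen, before being moved to solution with or without it, per the labels' protocols. The labels give the tissue as shoots of seedlings 14 days old, which is shorter than those times added together, and how long they stayed in the test solutions is not stated. Nothing in the labels says whether the 2 replicates of a group came from separate plants, so p-values measure the spread between these samples, which may be technical. RNA of whole shoots was measured, so fewer cells of a type and less RNA per cell cannot be told apart.

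Rice takes up nitrogen as nitrate and ammonium, reduces nitrate through nitrate and nitrite reductase, and binds the ammonium into glutamine. Shoots that run short of nitrogen are known to lower the transcripts of nitrate reduction and photosynthesis, to recover nitrogen from urea, purines and chlorophyll, and to change lignin and hormone metabolism. Varieties can differ in how far each of these programmes goes, and a difference of differences measures that directly.

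No probe set passed the test of a different response. With limma's moderated test and Benjamini-Hochberg adjustment, 0 of 34333 probe sets passed an adjusted p of 0.05 (0% called), and the smallest adjusted p was 0.9999. An unadjusted p under 0.05 was reached by 714 probe sets (2.08%), 307 with a difference above 0 and 407 below. That is fewer than the 1717 that 5% of the tested probe sets would be, while a fit with the replicate number as a block within each nitrogen level gave 1868 (5.44%). With quantile normalization in place of the deposited scaling the count was 706, split as 374 above and 332 below. The split moved with single arrays, with 139 above and 551 below without supplemented Prasanna replicate 1, and 618 above and 270 below without supplemented Varadan replicate 2. Taking 1 probe set per gene, 21510 loci were tested, of which 167 (0.776%) lay above 0 and 185 (0.86%) below 0 at an unadjusted p under 0.05. Of these 352 loci, 236 had responses of opposite sign in the varieties. The others had responses of the same sign, larger in Prasanna at 66 loci and in Varadan at 50. Opposite signs were found at 30.4% of all loci, and a choice by the difference favours them. A mean under the filter level (log2 4.48) in at least 1 group was found for 153 of the 352 (43.5%), against 2333 of all loci (10.8%), so many of the leading differences involve a signal near background.

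The difference of responses was small for most loci beside its error. Its median over the 21510 loci was -0.01, the median of its absolute value was 0.37 and the 5th and 95th percentiles were -1.39 and 1.48. The median standard error was 0.66, and 0.52 for the 13839 loci with a mean log2 signal of at least 8. At the median of 0.66 over all loci, a locus would need a difference of 9.30 on the log2 scale to pass the adjusted threshold alone. The absolute response had a median of 0.40 in Prasanna and 0.45 in Varadan and was larger in Varadan at 11941 loci (55.5%). Responses had opposite signs at 6545 loci (30.4%).

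**Figure D1:**
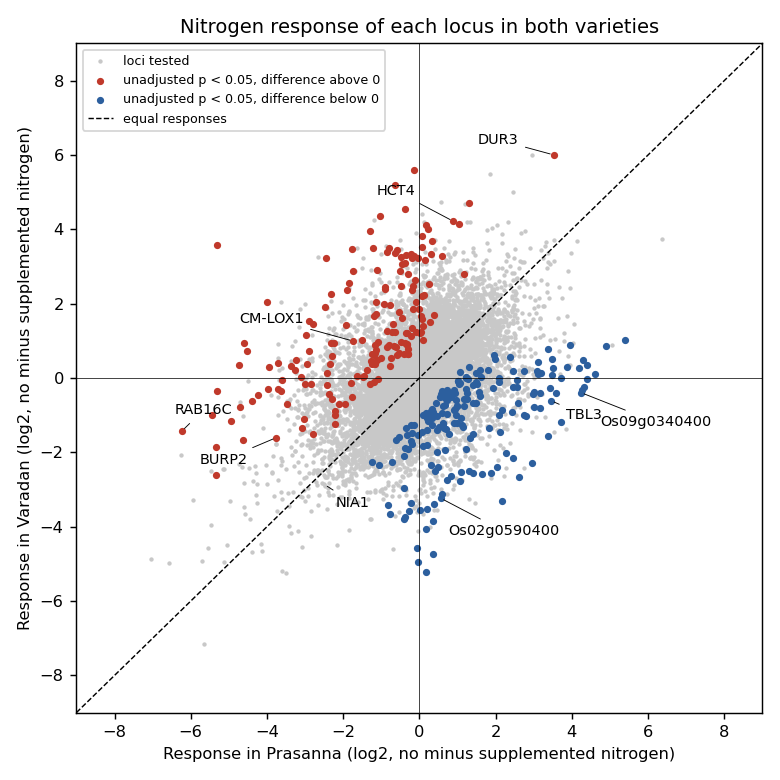
Each point is 1 of 21510 loci, with the log2 response to nitrogen withdrawal in Prasanna on the x axis and in Varadan on the y axis. Vertical distance from the dashed diagonal is the difference of responses, and the 167 red and 185 blue loci had an unadjusted p under 0.05, while 0 passed after adjustment.

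Replicate arrays differed more under nitrogen withdrawal. Over the tested loci their SD had a median of 0.44 in Prasanna and 0.42 in Varadan in the absence of nitrogen, against 0.26 and 0.21 in its presence. When the difference of responses was computed once from the 4 arrays numbered 1 and once from those numbered 2, the values correlated across loci at a Pearson r of 0.04 and a Spearman rho of 0.09, as a description over 21510 loci that share the same 8 arrays. They had the same sign at 54.3% of loci. For 1023 loci (4.76%) all 4 differences between single arrays in Varadan lay above all 4 in Prasanna, and for 1313 (6.1%) they lay below. In control probe sets the 3' minus 5' signal, a measure of RNA integrity, had a difference of responses of -0.45 for glyceraldehyde-3-phosphate dehydrogenase, -0.24 for cyclophilin, -0.14 for actin and -0.50 for ubiquitin. Only the ubiquitin control had no overlap between the responses of the varieties. The 3' minus 5' level of glyceraldehyde-3-phosphate dehydrogenase ran from 2.77 to 2.93 on the Prasanna arrays and from 3.87 to 4.78 on the Varadan arrays. For cyclophilin, actin and ubiquitin the levels of the varieties overlapped. The difference of responses of the 18S ribosomal RNA control was -0.32. The part of RNA quality in the gene values below was not tested.

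The genes described next came from loci with an unadjusted p under 0.05, a difference of at least 1 and no overlap between the varieties. All 352 loci at that p had no overlap, so this condition left none out and adds no support. At least 1 group mean also had to reach the median of group means (log2 9.07). Of these candidates 65 lay above 0, 12 of them with a gene symbol, and 68 below, 9 of them with one. Per direction, up to 12 with a symbol and 3 without were taken by smallest p. All candidates with a symbol were thus named, and most without one were not. The leading members of each gene list were added. The named genes were picked by the difference itself, so their values are a description. The adjusted p was at least 0.9999 for each of them. Besides the reference gene NIA1 there were 35, with 21 above 0 and 14 below. That split comes from the choice, as 65 candidates lay above 0 and 68 below. Of all loci with an unadjusted p under 0.05, 167 lay above 0 and 185 below. Of the 21, 13 had a response below 0 in Prasanna and above 0 in Varadan, 4 were below 0 in both and 4 above 0 in both. Of the 14, 8 had a response above 0 in Prasanna and below 0 in Varadan. These are signs of the estimates, and some lie within their standard error of 0. Examples are -0.02 ± 0.56 for CLPD1 in Prasanna, and 0.02 ± 0.36 for CM-LOX2 and -0.09 ± 0.31 for RH2 in Varadan. Choosing genes by the difference favours opposite signs, which 30.4% of all loci had, so these counts do not show reversed responses. The difference was larger in size on the arrays numbered 1 than on those numbered 2 for 27 of the 35. That count was not made over all loci, so it cannot be read as a trait of these genes. Gene names come from RefSeq, and the digits before the letter g in a locus identifier give the chromosome.

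The reference genes of nitrogen supply showed how the comparison reads. NIA1 (Os08g0468100), a nitrate reductase that is induced by nitrate, had log2 signals of 13.31 and 13.08 in Prasanna without nitrogen, 15.76 and 15.62 in Prasanna with it, 13.01 and 13.55 in Varadan without it and 16.29 and 15.995 in Varadan with it. The no-nitrogen arrays lay below the supplemented ones in both varieties, and the varieties overlapped in the size of that step. Its response was -2.50 in Prasanna and -2.86 in Varadan, a difference of -0.36 ± 0.41 (SE; 95% interval -1.32 to 0.60). Quantile normalization turned the sign of that difference, to 0.09. DUR3 (Os10g0580400), the high-affinity urea transporter, had signals of 8.99 and 9.51 in Prasanna without nitrogen, 6.48 and 4.97 in Prasanna with it, 8.75 and 9.83 in Varadan without it and 3.41 and 3.17 in Varadan with it. The no-nitrogen levels of the varieties overlapped, and the supplemented level was lower on both Varadan arrays, where it lay under the filter level. Its response was 3.52 in Prasanna and 6.0 in Varadan, a difference of 2.48 ± 0.90 (SE; limma unadjusted p = 0.0279). That size depends on a signal near background, and with a pseudocount of 32 the difference was 1.11. UAH (Os12g0597500), the ureidoglycolate amidohydrolase that releases ammonium at the end of purine breakdown, had a response of -0.75 in Prasanna and 0.54 in Varadan, a difference of 1.30 ± 0.48.

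A first group, with a less negative response in Varadan, held dehydrins, late embryogenesis abundant (LEA) proteins that accumulate under water loss and abscisic acid. RAB16C (Os11g0454000) had log2 signals of 9.41 and 7.68 in Prasanna without nitrogen, 16.04 and 13.52 in Prasanna with it, 12.24 and 10.15 in Varadan without it and 12.46 and 12.79 in Varadan with it. Both Prasanna arrays without nitrogen lay far below the supplemented ones, while in Varadan the no-nitrogen arrays spread from 10.15 to 12.24, below the supplemented ones by less. The response was -6.23 in Prasanna and -1.43 in Varadan, a difference of 4.80 ± 1.41 (SE; 95% interval 1.49 to 8.12; limma unadjusted p = 0.0108). Its 3 probe sets gave differences from 1.67 to 4.80. RAB16D (Os11g0453900), its next neighbour on chromosome 11 in the RefSeq table with 0 genes between them, had signals of 3.79 and 3.50 in Prasanna without nitrogen, 9.33 and 5.92 in Prasanna with it, 7.87 and 6.12 in Varadan without it and 7.50 and 7.07 in Varadan with it. Its Prasanna level without nitrogen was under the filter level, and the 2 supplemented Prasanna arrays were far apart. The difference was 3.69 ± 1.57, from -3.98 in Prasanna and -0.29 in Varadan. It was 2.29 with a pseudocount of 32 and 1.99 without supplemented Prasanna replicate 1. BURP2 (Os05g0217800), a BURP-domain protein, had signals of 9.44 and 10.49 in Prasanna without nitrogen, 13.48 and 13.96 in Prasanna with it, 12.71 and 14.02 in Varadan without it and 14.76 and 15.18 in Varadan with it. Its supplemented level was above its no-nitrogen level on every array of both varieties, with a larger step in Prasanna. The response was -3.75 in Prasanna and -1.60 in Varadan, a difference of 2.15 ± 0.74, and its 2 probe sets gave 0.37 and 2.15.

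Across the whole list of 32 LEA and abscisic acid genes, 22 had a difference above 0 and 10 below, with a median of 0.22 against -0.01 over all loci. RAB16C and RAB16D were the 2 members with an unadjusted p under 0.05 and a difference above 0 (background 0.776% of loci), and 0 members lay below 0 at that p (background 0.86%). The other members without overlap between the varieties were the phosphatase PP2C68, a negative regulator class of abscisic acid signalling, at 1.50 ± 0.73, and the kinase SAPK8, of the class that carries the signal, at 0.30 ± 0.34. These 2 were chosen after their values were seen. Without overlap, 4 of the 32 members lay above 0 and 0 below, against 4.76% and 6.1% of all loci. The list medians were 0.33 on the arrays numbered 1 and 0.18 on those numbered 2. The median was -0.10 without supplemented Prasanna replicate 1 and 0.52 without supplemented Prasanna replicate 2.

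**Figure D2:**
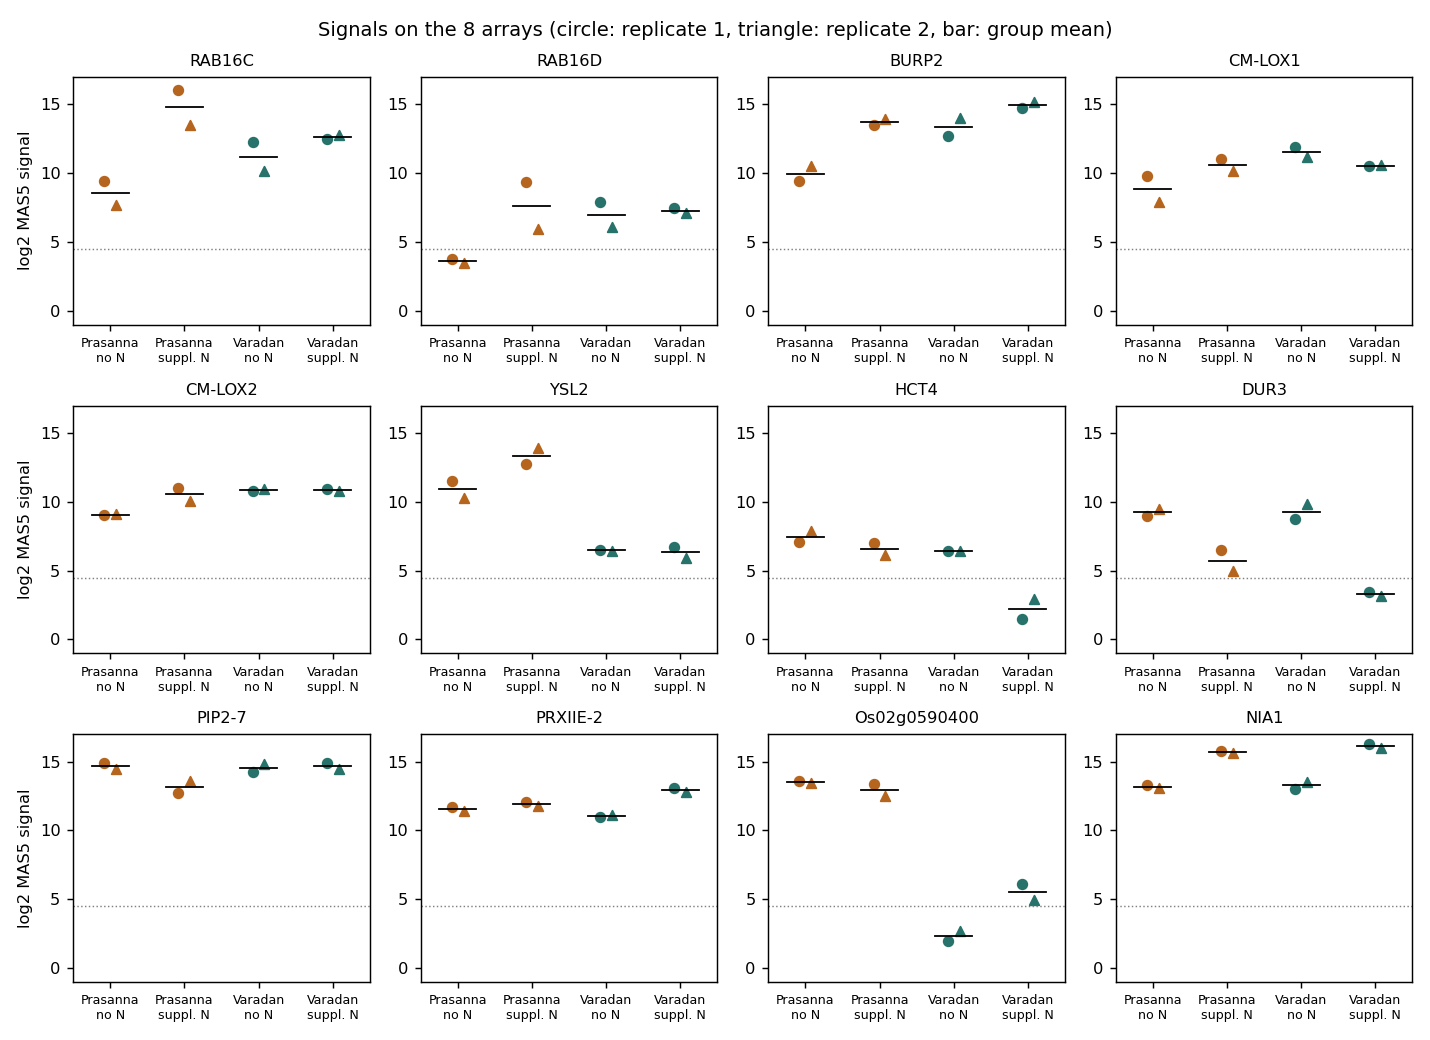
Log2 signals of 12 named genes on the 8 arrays, with circles for replicate 1, triangles for replicate 2, bars for group means and a dotted line at the filter level of 4.48. RAB16C steps from 14.78 to 8.55 in the Prasanna means and from 12.63 to 11.20 in the Varadan means, whereas NIA1 makes a similar step in both varieties.

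Genes of lipoxygenase and jasmonate metabolism formed a second group. CM-LOX1 (Os08g0508800) and CM-LOX2 (Os08g0509100) are named as lipoxygenases, the enzyme class that starts the synthesis of jasmonate, a wound and defence hormone, and lie next to each other on chromosome 8 in the RefSeq table. CM-LOX1 had signals of 9.81 and 7.93 in Prasanna without nitrogen, 11.06 and 10.15 in Prasanna with it, 11.92 and 11.15 in Varadan without it and 10.50 and 10.59 in Varadan with it. Without nitrogen it was lower in both Prasanna arrays than in either supplemented one, and higher in both Varadan arrays. The response was -1.74 in Prasanna and 0.99 in Varadan, a difference of 2.73 ± 0.89 (SE; limma unadjusted p = 0.0176), and 1.79 without Prasanna no-nitrogen replicate 2. CM-LOX2 had signals of 9.06 and 9.10 in Prasanna without nitrogen, 11.04 and 10.05 in Prasanna with it, 10.79 and 10.95 in Varadan without it and 10.93 and 10.77 in Varadan with it. Its Varadan arrays lay within 0.18 of each other, and the difference of 1.49 ± 0.51 came from the step of -1.47 in Prasanna. Its 2 probe sets gave 0.47 and 1.49. Of the 32 jasmonate genes tested 21 lay above 0 and 11 below, with a median of 0.16. The 2 lipoxygenases were its only members with an unadjusted p under 0.05 (0.776% of all loci above 0), and the median changed sign between the arrays numbered 1 (0.65) and numbered 2 (-0.18). It was -0.42 without Varadan no-nitrogen replicate 1 and 0.96 without Varadan no-nitrogen replicate 2.

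Phenylpropanoid genes, which make lignin, flavonoids and phenolic conjugates, held 4 named members, all above 0. HCT3 (Os06g0184900) and HCT4 (Os06g0185500), named as hydroxycinnamoyltransferases, lie on chromosome 6 with 2 genes between them in the RefSeq table. HCT4 had signals of 7.07 and 7.89 in Prasanna without nitrogen, 7.02 and 6.16 in Prasanna with it, 6.40 and 6.44 in Varadan without it and 1.47 and 2.93 in Varadan with it. Its supplemented Varadan arrays were under the filter level, and the other 6 arrays lay between 6.16 and 7.89. The difference was 3.33 ± 1.08, from 0.89 in Prasanna and 4.22 in Varadan, and 0.95 with a pseudocount of 32. HCT3 had a response of -1.27 in Prasanna and 0.47 in Varadan, a difference of 1.74 ± 0.62. AT4 (Os01g0291500, also named PMT), an acyltransferase that adds p-coumarate to lignin precursors, stood at -0.32 and 1.20, a difference of 1.53 ± 0.58. LAC15 (Os10g0346300), named as a laccase, a class of oxidases that couple lignin precursors, stood at 2.92 ± 0.92, but its 3 probe sets ran from -1.73 to 2.92 and disagreed in sign. Of the 33 genes tested 21 lay above 0 and 12 below, with a median of 0.26. The members past an unadjusted p of 0.05 were 4 above 0 (0.776% of all loci) and 0 below (0.86% of all loci). The medians were 0.33 on the arrays numbered 1 and 0.21 on those numbered 2.

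Transporters were found on both sides. YSL2 (Os02g0649900), a carrier of iron and manganese bound to nicotianamine, had signals of 11.52 and 10.31 in Prasanna without nitrogen, 12.79 and 13.89 in Prasanna with it, 6.51 and 6.43 in Varadan without it and 6.74 and 5.92 in Varadan with it. The Prasanna arrays all lay above 10, with the no-nitrogen ones lower, and the Varadan arrays all lay below 7 with the nitrogen levels overlapping. The difference of 2.56 ± 0.77 (limma unadjusted p = 0.012) thus compares a bright with a dim signal. YSL13 (Os04g0524500), of the same family, stood at 0.07 in Prasanna and 1.59 in Varadan, a difference of 1.52 ± 0.56. They were the only 2 of 58 metal transport and metallothionein genes past an unadjusted p of 0.05 (0.776% of all loci above 0), and the list divided into 31 above and 27 below with a median of 0.11. ABCG37 (Os01g0609900), an ATP-binding cassette transporter, stood at -1.17 and 0.68, a difference of 1.85 ± 0.60.

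PIP2-7 (Os09g0541000), a water channel of the plasma membrane, had signals of 14.91 and 14.45 in Prasanna without nitrogen, 12.75 and 13.60 in Prasanna with it, 14.24 and 14.83 in Varadan without it and 14.91 and 14.49 in Varadan with it. In Prasanna both no-nitrogen arrays lay above both supplemented ones, while in Varadan the nitrogen levels overlapped. The response was 1.51 in Prasanna and -0.17 in Varadan, a difference of -1.67 ± 0.55 (SE; limma unadjusted p = 0.0181). It was the single one of 26 aquaporins past an unadjusted p of 0.05 (0.86% of all loci below 0). The list divided into 15 above and 11 below, with a median of 0.07.

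Among the other named genes below 0, PRXIIE-2 (Os02g0192700), a peroxiredoxin that removes peroxides, had the smallest error. Its signals were 11.69 and 11.41 in Prasanna without nitrogen, 12.06 and 11.78 in Prasanna with it, 10.98 and 11.13 in Varadan without it and 13.12 and 12.76 in Varadan with it. Nitrogen levels were close in Prasanna and clearly apart in Varadan, with a response of -0.37 in the first and -1.89 in the second. The difference was -1.52 ± 0.38 (SE; 95% interval -2.41 to -0.62; limma unadjusted p = 0.00487). The values computed from the arrays numbered 1 and 2 were -1.76 and -1.27.

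The remaining named genes below 0 had varied roles. LSD1 (Os08g0159500), a zinc-finger protein whose Arabidopsis namesake restrains cell death, stood at -0.20 in Prasanna and -1.79 in Varadan, a difference of -1.59 ± 0.59, and its 4 probe sets ran from -2.14 to -1.21. NH5 (Os12g0138500), named for the NPR1 defence regulators, stood at -1.20 ± 0.47 and was the single one of 15 defence genes past an unadjusted p of 0.05 (0.86% of all loci below 0). IAA19 (Os05g0559400), an Aux/IAA repressor of auxin signalling, stood at -1.85 ± 0.76. CYP734A6 (Os01g0388000), a cytochrome P450 that inactivates brassinosteroids, stood at -1.60 ± 0.62, and its other probe set at -0.16. IAA19 had a response of 0.63 ± 0.53 in Prasanna, where differences of single arrays ran from -0.38 to 1.64, and of -1.22 in Varadan. CYP734A6 stood at 1.80 in Prasanna and 0.21 in Varadan. APY3 (Os12g0123500), an apyrase that splits nucleotides, stood at -2.07 ± 0.85. The helicase RH2 (Os01g0508500) stood at -1.09 ± 0.44 and SNAT2 (Os08g0102000), an acetyltransferase of melatonin synthesis, at -1.05 ± 0.45. Without supplemented Prasanna replicate 1 IAA19 stood at -1.06, without Varadan no-nitrogen replicate 1 LSD1 stood at -0.94, and without Prasanna no-nitrogen replicate 1 APY3 stood at -1.35. In SNAT2 both responses were below 0, with -0.54 in Prasanna and -1.59 in Varadan.

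Cell wall genes showed no common side. Of 86 tested, 41 lay above 0 and 45 below, with a median of -0.05, and 1 above (0.776% of all loci) and 2 below (0.86% of all loci) had an unadjusted p under 0.05. TBL3 (Os03g0817500), of a family that acetylates wall polymers, stood at -4.06 ± 1.22, and GLU15 (Os08g0387400), an endoglucanase, at -3.40 ± 1.07. Neither exceeded 6.84 on any array, and their supplemented Prasanna means were under the filter level. With a pseudocount of 32 they stood at -1.78 and -1.47. CSLE1 (Os09g0478100), a cellulose synthase-like protein, stood at 0.95 ± 0.39 with group means from 11.15 to 12.17. CLPD1 (Os02g0526400), a chaperone subunit of the chloroplast Clp protease, stood at -0.02 in Prasanna and 1.85 in Varadan, a difference of 1.87 ± 0.79 that was 1.05 without supplemented Prasanna replicate 1.

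The 4 smallest p among the named genes belonged to loci without a symbol. Os03g0341600 had signals of 8.88 and 8.53 in Prasanna without nitrogen, 10.09 and 9.11 in Prasanna with it, 11.58 and 10.69 in Varadan without it and 8.60 and 8.75 in Varadan with it. Only the Varadan arrays without nitrogen stood out, above all other 6 arrays. Its difference was 3.36 ± 0.62 (SE; limma unadjusted p = 0.000897), and its 2 probe sets gave 3.12 and 3.36. Os12g0628600 had a response of -5.35 in Prasanna and -2.60 in Varadan, a difference of 2.74 ± 0.70, with the Prasanna arrays without nitrogen at 7.69 and 8.06 and all others above 11. The other 4 were dim in 1 variety. Os02g0590400 lay at 12.53 to 13.58 in Prasanna and at 1.93 to 6.14 in Varadan, with a difference of -3.79 ± 0.73. Os06g0118700 lay at 9.67 to 10.84 in Prasanna and at 1.53 to 4.25 in Varadan, with a difference of 2.75 ± 0.78. Os09g0340400 (-4.63 ± 0.90) and Os01g0564300 (-3.07 ± 0.68) were dim in Prasanna, at most 5.37 and 6.10, and at 10.15 or above in Varadan. The other probe set of Os01g0564300 gave -0.32. With a pseudocount of 32, which damps dim signals, Os02g0590400 stood at -1.67, Os06g0118700 at 1.19, Os09g0340400 at -1.33 and Os01g0564300 at -0.37. In each of these 4 loci at least 1 group mean of the dim variety was under the filter level.

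**Figure D3:**
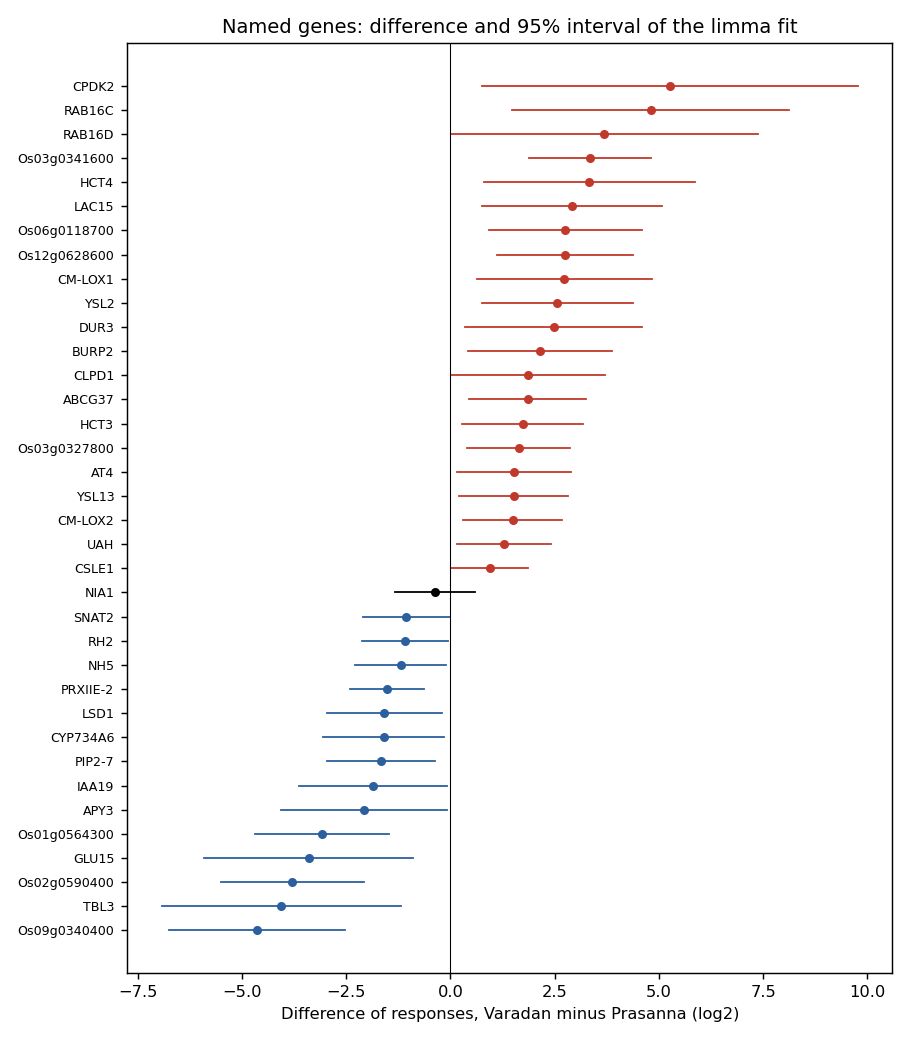
Difference of responses (Varadan minus Prasanna, log2) of the 36 named genes with the 95% interval of the limma fit. The genes other than NIA1 were chosen for an unadjusted p under 0.05, so their intervals leave out 0 by the choice, and 0 of them passed after adjustment.

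No member of the gene lists that describe nitrogen use itself passed an unadjusted p of 0.05. Of all loci 0.776% did so above 0 and 0.86% below. In lists of 4 to 16 genes, 0 members is near those shares. DUR3 and UAH, which passed that p, were not in these lists. Of 7 genes of nitrate uptake and reduction, 2 lay above 0 and 5 below, with a median of -0.36. The high-affinity nitrate transporters NRT2.2 and NRT2.3 stood at -0.31 ± 0.79 and 0.26 ± 1.14, and their partner proteins NAR2.1 and NAR2.2 at -1.35 ± 1.85 and -0.37 ± 2.49, errors larger than the differences. Of 16 genes of ammonium uptake and assimilation 11 lay above 0 and 5 below, with a median of 0.26. The cytosolic glutamine synthetases GLN1-1 and GLN1-2 stood at 0.39 ± 0.64 and 0.07 ± 0.36, the plastid form GLN2 at -0.53 ± 1.02 and the ferredoxin-dependent glutamate synthase Fd-GOGAT at -0.25 ± 1.04. The ammonium transporter AMT3-1 stood at -2.47 ± 1.31. It was the only 1 of 16 members without overlap between the varieties, near the 6.1% of all loci below 0 without overlap. Among 7 regulators tied to nitrogen supply 4 lay above 0 and 3 below, with a median of 0.06. The nitrate-sensing factors NLP1 and NLP2 stood at 0.27 ± 0.43 and 0.35 ± 0.66, and the nitrate-inducible repressor NIGT1 at 0.91 ± 2.19. Of 4 amino acid carriers 1 lay above 0 and 3 below, with a median of -0.19. Genes of these lists other than NIA1 were chosen for their role after their values were seen.

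Genes of the light reactions had the lowest list median at the deposited scaling. Of 12 genes of the light reactions 10 lay below 0 and 2 above, with a median of -0.75 against -0.01 over all loci. An unadjusted p under 0.05 was reached by 0 of the 12 (0.776% of all loci above 0 and 0.86% below). The light-harvesting proteins RCABP69 and CAB2R stood at -1.09 ± 0.71 and -0.73 ± 0.49, the plastocyanin PETE at -0.65 ± 0.43 and the oxygen-evolving subunit LP02 at -0.76 ± 0.52. These 4, chosen after their values were seen, were the members without overlap between the varieties, against 6.1% of all loci below 0. The share among loci as bright as these is not given, so the 6.1% may not be a like background. RCABP69 had signals of 14.67 and 14.66 in Prasanna without nitrogen, 15.15 and 15.32 in Prasanna with it, 13.85 and 15.50 in Varadan without it and 16.47 and 16.19 in Varadan with it. Only the first Varadan array without nitrogen lay under 14. The medians of the list were -1.24 on the arrays numbered 1 and -0.14 on those numbered 2.

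The signal level and the scaling moved with this value. Of the 12 light-reaction genes 7 had a mean log2 signal of at least 14. The 303 tested loci at that level had a median difference of -0.28 with the deposited scaling and of -0.01 after quantile normalization. After quantile normalization the median of the light-reaction list was -0.32, with 10 genes still below 0, and diterpenoid genes had a lower one, -0.53. Without Varadan no-nitrogen replicate 1 it was -0.15, and without Varadan no-nitrogen replicate 2 it was -1.37. Carbon fixation and photorespiration, with 15 of 19 genes below 0, moved from a median of -0.38 to -0.25 and to 11 genes below 0. The small subunit of Rubisco RBCS1 stood at -0.77 ± 0.49 and the glycine cleavage protein GDCSH at -1.22 ± 0.65, both chosen after their values were seen. CPDK2 (Os03g0432100, also named PPDK2), a pyruvate phosphate dikinase, was the only member of that list past an unadjusted p of 0.05 (0.776% of all loci above 0). Its signals were 3.16 and 6.02 in Prasanna without nitrogen, 6.57 and 6.18 in Prasanna with it, 7.58 and 5.85 in Varadan without it and 1.78 and 4.69 in Varadan with it, and its difference of 5.26 ± 1.92 was 9.20 and 1.32 on the arrays numbered 1 and 2. It was 2.51 with a pseudocount of 32.

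Chlorophyll genes lay on both sides. In chlorophyll synthesis 6 of 14 genes lay above 0 and 8 below, with a median of -0.23. The protochlorophyllide reductases PORA and PORB stood at 0.94 ± 0.45 and -1.27 ± 1.14, and were chosen for their role after their values were seen. In chlorophyll breakdown and senescence 4 of 6 genes lay above 0, with the highest median of all lists at the deposited scaling, 0.68, made up of 1.26 on the arrays numbered 1 and -0.04 on those numbered 2. Os03g0327800, which has no symbol in the tables used, was its 1 member past an unadjusted p of 0.05 (0.776% of all loci above 0). It had signals of 11.50 and 11.89 in Prasanna without nitrogen, 10.83 and 10.21 in Prasanna with it, 11.84 and 12.61 in Varadan without it and 9.57 and 9.26 in Varadan with it. Both varieties were higher without nitrogen, with no overlap between nitrogen levels. Its response was 1.17 in Prasanna and 2.81 in Varadan, a difference of 1.63 ± 0.53, and 1.60 and 1.67 on the arrays numbered 1 and 2. The stay-green gene SGR (0.74 ± 0.77), the chlorophyll b reductase NYC1 (0.75 ± 0.51) and the red chlorophyll catabolite reductase RCCR1 (0.63 ± 0.50) also lay above 0, within 2 errors of it. The members below 0 were the chlorophyll b reductase NOL (-0.26 ± 0.86) and the transcription factor NAC2 (-0.56 ± 0.43). NAC2 had no overlap between the varieties, as had 6.1% of all loci below 0. The 5 genes named here by symbol were chosen after their values were seen. The median was 0.06 without supplemented Prasanna replicate 1.

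**Figure D4:**
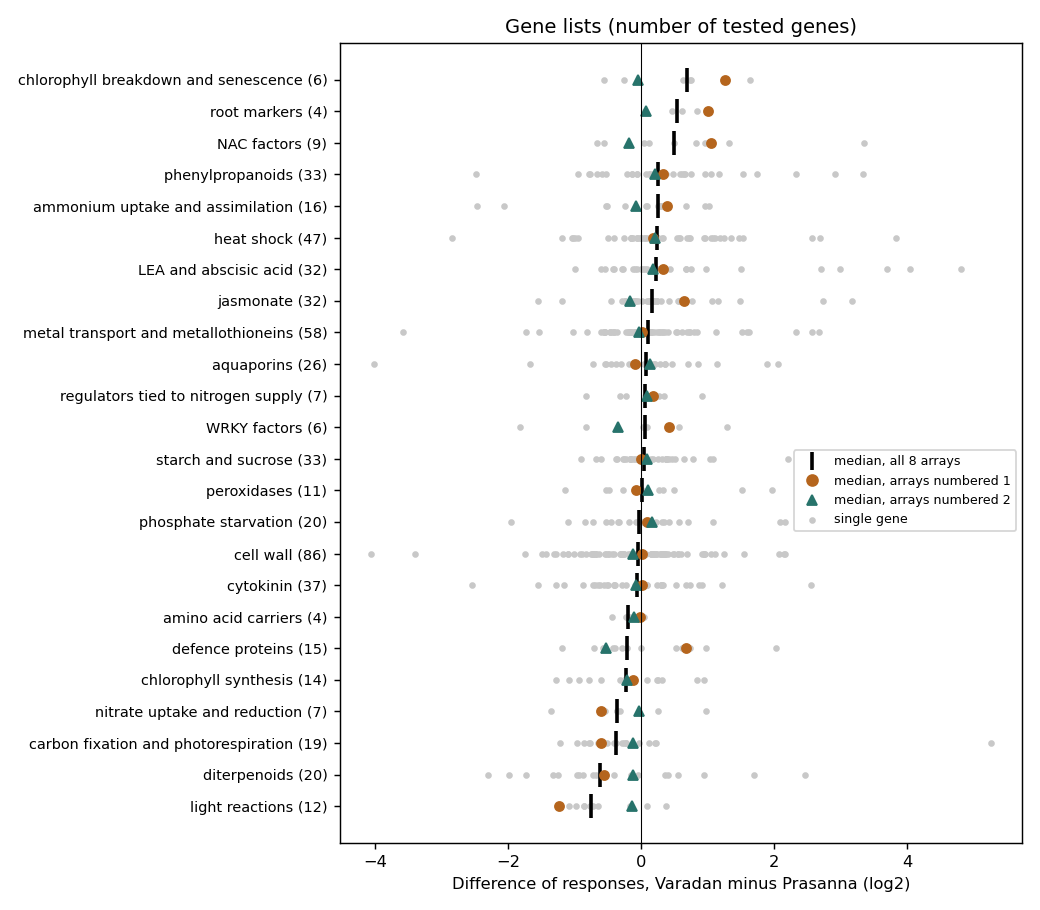
Difference of responses (log2) of the genes of each list (grey points), with the median over all 8 arrays (black bars) and the medians from the arrays numbered 1 (circles) and 2 (triangles); the number of tested genes is in brackets. With the deposited scaling shown here, light reactions have the lowest median, -0.75 (-0.32 after quantile normalization, above the -0.53 of diterpenoids), and senescence the highest, 0.68, and in both the circle lies much farther from 0 than the triangle.

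A further 8 lists held 0 members with an unadjusted p under 0.05 (0.776% of all loci above 0 and 0.86% below). Diterpenoid genes, which make gibberellins and phytoalexins, had 14 of 20 below 0 and a median of -0.62, which was 0.23 without Varadan no-nitrogen replicate 1. Heat shock genes had 30 of 47 above 0 and a median of 0.24, with similar medians on the arrays numbered 1 (0.18) and 2 (0.20). NAC factors had 7 of 9 above 0 and a median of 0.49, but medians of 1.05 and -0.18 on the 2 sets of arrays. WRKY factors (6 tested, median 0.05), peroxidases (11, 0.01), starch and sucrose genes (33, 0.04), phosphate starvation genes (20, -0.03) and cytokinin genes (37, -0.06) had medians close to that of all loci. The defence list, which held NH5, had a median of -0.21. After quantile normalization the medians of the defence (0.01) and peroxidase (-0.02) lists changed sign. Over the 23 lists, 13 medians lay above 0 and 10 below, and 11 had the same sign on the arrays numbered 1 and 2. Leaving out 1 array turned the sign of the median in 16 lists for at least 1 of the 8 arrays.

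Root markers were read because a shoot sample could hold root tissue. All 4 (QHB, Lsi1, RAA1 and WOX11) had a difference above 0, from 0.06 to 0.83, with a median of 0.54 (-0.02 without supplemented Varadan replicate 1). An unadjusted p under 0.05 was reached by 0 of these 4 (0.776% of all loci above 0 and 0.86% below). The log2 of their summed signal ran from 10.09 to 10.11 in Prasanna without nitrogen and from 10.32 to 10.52 with it, and from 10.51 to 10.94 in Varadan without nitrogen and from 10.32 to 10.60 with it. QHB, which marks the root's stem cell centre, ran from 4.67 to 6.47 over all arrays. The part of root tissue in the gene values was not tested.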

How the data were processed

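Shoot RNA was hybridised to 8 Affymetrix rice arrays. The deposited log2 values were summarised by the authors with MAS5, per the submitters' processing notes, version not given. A second deposited table holds the same signals as linear intensity values, and its log2 differed by at most 2.96e-08. On each array the mean signal after trimming 2% at each end was 500.0. MAS5 subtracts mismatch signals, which widens the spread of dim probe sets, and its scaling removes changes shared by most transcripts. For arrays, their number limits the precision.

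The 187 control probe sets were left out, and the test took those probe sets whose log2 mean reached 4.48, the 40th percentile. Of all probe sets besides the controls, tested or not, 34860 were paired with 1 gene, 567 with several and 21767 with none. RefSeq (assembly ASM3414082v1) held 30586 of those with 1 gene, 2446 tested loci had a symbol, and no coordinates or sequences are given. The brightest tested probe set stood for each locus. Some named probe sets can match several transcripts or related genes by their design suffix: 6 carry s (DUR3, HCT4, ABCG37, LSD1, NH5 and Os09g0340400) and 3 carry x (CPDK2, GLU15 and Os12g0628600). Limma 3.58.1 in R 4.3.3 (lmFit, eBayes with trend) was fitted to all 8 arrays with 1 mean per group and 4 residual degrees of freedom. Tests were 2-sided at 0.05 with Benjamini-Hochberg adjustment, and errors are standard errors unless called SD. The fit was checked on simulated data, with errors independent between arrays, for the median size of added differences. How many of them were called there is not given. No overlap means that the 4 differences of single arrays in 1 variety lie on 1 side of the 4 in the other.

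The named genes were up to 12 with a symbol and 3 without per direction, up to 2 per list and direction, and the references NIA1 and DUR3. The genes and lists were chosen with earlier results of these data known. Alternatives were no filter or a 60th percentile filter, quantile normalization, a pseudocount of 32, no trend, array weights, replicate blocks, and leaving out arrays.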

Additional observations from a re-analysis of the deposited data

How the results depend on the processing

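No probe set passed the adjusted threshold under any of the 18 alternatives. The lowest adjusted p of any alternative was 0.0922, without both no-nitrogen arrays numbered 2. The count at an unadjusted p under 0.05, 714 of 34333, moved with the filter and the error model: it was 1851 with no filter, 310 of 22868 with the 60th percentile filter and 1096 without the trend. It was 764 with the pseudocount and 626 with array weights. Leaving out 1 array gave 690 to 1642, and 3 arrays moved it by over 1.5 times: Prasanna without nitrogen replicate 2 (1190), supplemented Prasanna replicate 2 (1161) and Varadan without nitrogen replicate 2 (1642). It was 1286 without both no-nitrogen arrays numbered 1 and 2279 without both numbered 2. The causes were not tested. Loci without overlap were not recounted where arrays were left out; over probe sets the count was 4207, with 4246 after quantile normalization and 4123 with the pseudocount.

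Replicate numbers are shared by the groups, but the labels give them no meaning. The 18S control was higher on the array numbered 1 than on that numbered 2 in each group. In Prasanna it was 15.49 against 13.51 without nitrogen and 14.18 against 13.11 with it. In Varadan it was 14.17 against 13.26 without nitrogen and 13.51 against 12.85 with it. The cause was not tested. Deviations of same-numbered arrays correlated at 0.46 between the no-nitrogen groups and at -0.04 to 0.11 between the other pairs of groups. The main fit did not take the numbers as pairs. A deviation shared by the no-nitrogen arrays of 1 number cancels in the difference of responses but stays in the error of that fit. The standard errors, intervals and p-values given for the genes may therefore be too large, which was not tested. With the replicate number as a block the count was 851, and with a replicate block within each nitrogen level 1868 (5.44%), with a median standard error of 0.55 in place of 0.78. Neither block made a call.

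Of 642 values of the 36 named genes under the alternatives, 640 kept their sign. The exceptions were both NIA1, at 0.093 after quantile normalization and 0.025 without both no-nitrogen arrays numbered 1. Most of the 642 values could not have turned, so their number measures no steadiness. The filters, the trend, the array weights and the blocks leave the estimate itself unchanged. The named genes besides NIA1 had no overlap between the varieties, so leaving out arrays could not turn them. Only quantile normalization and the pseudocount could. The sizes were less steady: besides NIA1, 16 named genes moved by over 1.5 times under at least 1 alternative. With the pseudocount 10 did, all toward 0, and with 1 array left out 6 did (RAB16D, CLPD1, IAA19, LSD1, APY3 and CM-LOX1). SNAT2 moved to -0.58 without both no-nitrogen arrays numbered 1. Of 432 list medians under alternatives 119 moved by more than their spread between replicate numbers. The 432 include settings that cannot move a median, namely no filter, no trend, array weights and the blocks.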
